A study of Homo sapiens with 38 samples.

Results

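The replication-dependent histone genes are the clustered genes whose products package newly made DNA. They were taken as the protein-coding genes of hg38 (GENCODE 44) whose symbol is H2AC, H2BC, H3C or H4C followed by a number, together with the linker histone genes H1-1 to H1-6. This gave 69 of 20046 protein-coding genes: 6 genes of H1, 17 of H2A, 18 of H2B, 13 of H3 and 15 of H4. A gene was called occupied in a peak list when any base of a peak lay within 1000 bp of any of its annotated transcript starts. The 69 genes lie in 6 clusters, numbered along the genome. Cluster 1 (11 genes, H2BC18 to H2AC21) and cluster 2 (H2AC25 and H2BC26) are on chromosome 1. Cluster 3 (34 genes, H2AC1 to H4C8), cluster 4 (5 genes, H2BC11 to H2AC12) and cluster 5 (16 genes, H2BC13 to H2BC17) are on chromosome 6, and H4C16 stands alone on chromosome 12. Because neighbouring histone genes are often transcribed away from each other, the starts form 58 promoter loci when starts within 1000 bp of each other are merged.

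These genes are transcribed mainly in S phase, when the cell needs histones for replicated DNA, and their mRNAs end in a stem-loop in place of a poly(A) tail. Their transcription is organised in nuclear bodies around the coactivator NPAT, and their promoters use CCAAT, TATA, octamer and other histone type-specific elements. Sp1 is a zinc finger transcription factor that binds GC boxes and is best known at promoters of CpG islands.

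The data are CUT&RUN libraries, in which an antibody directs a nuclease to a protein so that the DNA beside it is released and sequenced, from the U2OS osteosarcoma line. In all groups the endogenous Sp1 carries V5 and Halo tags, and by the labels all were given doxycycline (1 µg/ml, for 36 h before and 36 h after cell sorting) and stained with 5 nM Halo ligand and 5 nM SNAP ligand. The parental line (CTRL) carries no FLAG construct. The other lines were sorted for expression of a FLAG-tagged construct under doxycycline on top of the endogenous Sp1: Sp1 WT, the Sp1 DNA-binding domain alone (Sp1 DBD), the disordered region of EWS joined to it (EWS IDR–Sp1 DBD), the CTCF DNA-binding domain (CTCF DBD), the disordered region of Sp1 joined to that domain (Sp1 IDR–CTCF DBD), LacI, Sp1 IDR–LacI, an Sp1 mutant left with a single zinc finger (Sp1 DBD Mutant), or a nuclear SNAP tag (SNAPf-NLS). Mouse anti-FLAG was used in all 10 lines and rabbit anti-FLAG in CTRL. Rabbit and mouse anti-V5, which read the tagged endogenous Sp1, were each used in CTRL, Sp1 WT, Sp1 IDR–LacI and Sp1 IDR–CTCF DBD. There were 38 samples, 2 replicates for every pairing of line with antibody (19 groups). Each of the 19 deposited lists was made from both replicates and has no replicates of its own, so a difference between lists has no replicate error. The lists held from 22 peaks (CTRL, mouse anti-FLAG) to 5151 peaks (Sp1 WT, mouse anti-FLAG), and the read numbers behind them were not analysed here. Peak lists hold no expression, so the line could not be checked against its marker genes.

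Sp1 WT was listed at few of the histone genes. The DNA before those with the highest peaks is shown to set their motifs beside those of genes without a peak. The windows below are hg38 sequence upstream of the start of the histone gene with the highest Sp1 WT peak of each type, read in the direction of transcription; no H1 gene had one. Capitals mark any match, on either strand, to the GC box GGGCGG, the CCAAT box CCAAT, the TATA box TATAAA or the octamer ATTTGCAT. The windows are chr1:149841209-149841458 (minus strand) for H3C14, chr1:149842751-149843000 (minus strand) for H2AC18, chr6:26171809-26172058 (plus strand) for H2BC6 at its upstream start, and chr6:26285639-26285784 (minus strand, 105 to 250 bases before the start) for H4C8.
H3C14: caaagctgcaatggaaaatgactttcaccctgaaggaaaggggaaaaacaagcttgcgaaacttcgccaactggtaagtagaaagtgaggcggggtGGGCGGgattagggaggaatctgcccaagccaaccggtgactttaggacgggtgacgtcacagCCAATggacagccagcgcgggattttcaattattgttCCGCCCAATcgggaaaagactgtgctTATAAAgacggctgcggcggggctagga
H2AC18: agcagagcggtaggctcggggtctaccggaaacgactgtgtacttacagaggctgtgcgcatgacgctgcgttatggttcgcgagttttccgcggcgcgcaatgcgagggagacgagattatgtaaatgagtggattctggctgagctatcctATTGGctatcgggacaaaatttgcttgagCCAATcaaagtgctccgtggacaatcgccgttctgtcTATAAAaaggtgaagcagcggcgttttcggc
H2BC6: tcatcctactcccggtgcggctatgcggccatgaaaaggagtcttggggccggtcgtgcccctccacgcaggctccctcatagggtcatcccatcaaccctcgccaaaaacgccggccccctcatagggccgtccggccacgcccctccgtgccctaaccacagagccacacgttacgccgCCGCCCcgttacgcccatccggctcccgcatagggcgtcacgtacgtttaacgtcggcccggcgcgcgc
H4C8: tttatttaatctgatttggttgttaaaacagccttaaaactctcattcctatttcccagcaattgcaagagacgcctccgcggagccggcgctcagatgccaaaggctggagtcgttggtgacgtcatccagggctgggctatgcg

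The H3C14 window held 2 GC boxes, 154 to 149 and 54 to 49 bases before the start, the second of which shares bases with a CCAAT box. The TATA box of H3C14 began 28 bases before the start and that of H2AC18 31 bases before it. H2AC18 had 2 CCAAT boxes and no GC box, H2BC6 had 1 GC box (69 to 64 bases before its upstream start) and no other match, and the H4C8 window had no match to any of the 4 motifs.

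For comparison, the next windows stand before the canonical start of the first gene by position of H1, H2A, H2B and H3 that had no peak in any of the 19 lists. They are chr6:26017788-26018037 (minus strand) for H1-1, chr1:149886683-149886917 (plus strand) for H2AC20, chr1:149812374-149812620 (minus strand) for H2BC18 and chr1:149813694-149813943 (minus strand) for H3C13.
H1-1: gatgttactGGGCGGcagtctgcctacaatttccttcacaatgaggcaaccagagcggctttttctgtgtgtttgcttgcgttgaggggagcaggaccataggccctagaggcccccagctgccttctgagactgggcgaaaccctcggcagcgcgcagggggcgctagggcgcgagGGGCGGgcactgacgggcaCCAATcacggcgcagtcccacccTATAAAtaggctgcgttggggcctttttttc
H2AC20: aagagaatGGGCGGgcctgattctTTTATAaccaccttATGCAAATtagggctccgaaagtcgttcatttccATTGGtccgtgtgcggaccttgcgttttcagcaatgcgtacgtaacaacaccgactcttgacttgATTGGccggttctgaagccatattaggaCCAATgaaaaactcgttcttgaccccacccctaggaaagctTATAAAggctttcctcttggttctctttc
H2BC18: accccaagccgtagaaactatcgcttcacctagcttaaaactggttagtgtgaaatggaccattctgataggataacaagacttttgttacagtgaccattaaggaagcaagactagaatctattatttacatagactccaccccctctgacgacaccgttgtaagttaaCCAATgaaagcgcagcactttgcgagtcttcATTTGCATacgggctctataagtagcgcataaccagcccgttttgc
H3C13: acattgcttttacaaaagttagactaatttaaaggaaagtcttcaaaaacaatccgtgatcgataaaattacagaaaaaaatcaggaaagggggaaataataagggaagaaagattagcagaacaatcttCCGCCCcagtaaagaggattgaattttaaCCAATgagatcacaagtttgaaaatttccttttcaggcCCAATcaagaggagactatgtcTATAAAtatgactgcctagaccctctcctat

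A GC box was present in the unoccupied windows too. H1-1 had 2, of which the nearer lay 73 to 68 bases before the start, and H3C13 and H2AC20 had 1 each. H2BC18 and H2AC20 carried the octamer, the element that the factor Oct-1 binds.

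In the Sp1 WT anti-FLAG list, 6 of the 69 histone genes were occupied, 8.70% (95% Wilson interval 4.05 to 17.7%, which covers counting over genes only), where 23.7% of all protein-coding genes were. The interval does not reach the share of all genes. The occupied genes were H3C14, H2AC18, H2BC6, H4C8, H2BC11 and H2AC11, and they rested on 4 peaks, since H3C14 and H2AC18 shared one and H2BC11 and H2AC11 another. By type these were 0 of 6 H1 genes, 2 of 17 H2A, 2 of 18 H2B, 1 of 13 H3 and 1 of 15 H4. By cluster they were 2 of 11 in cluster 1, 0 of 2 in cluster 2, 2 of 34 in cluster 3, 2 of 5 in cluster 4, 0 of 16 in cluster 5 and 0 of 1 in cluster 6. Thus a block of 16 genes, with H1-5 and members of every core histone type, held no Sp1 WT peak at all between its first and last start.

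**Figure D1:**
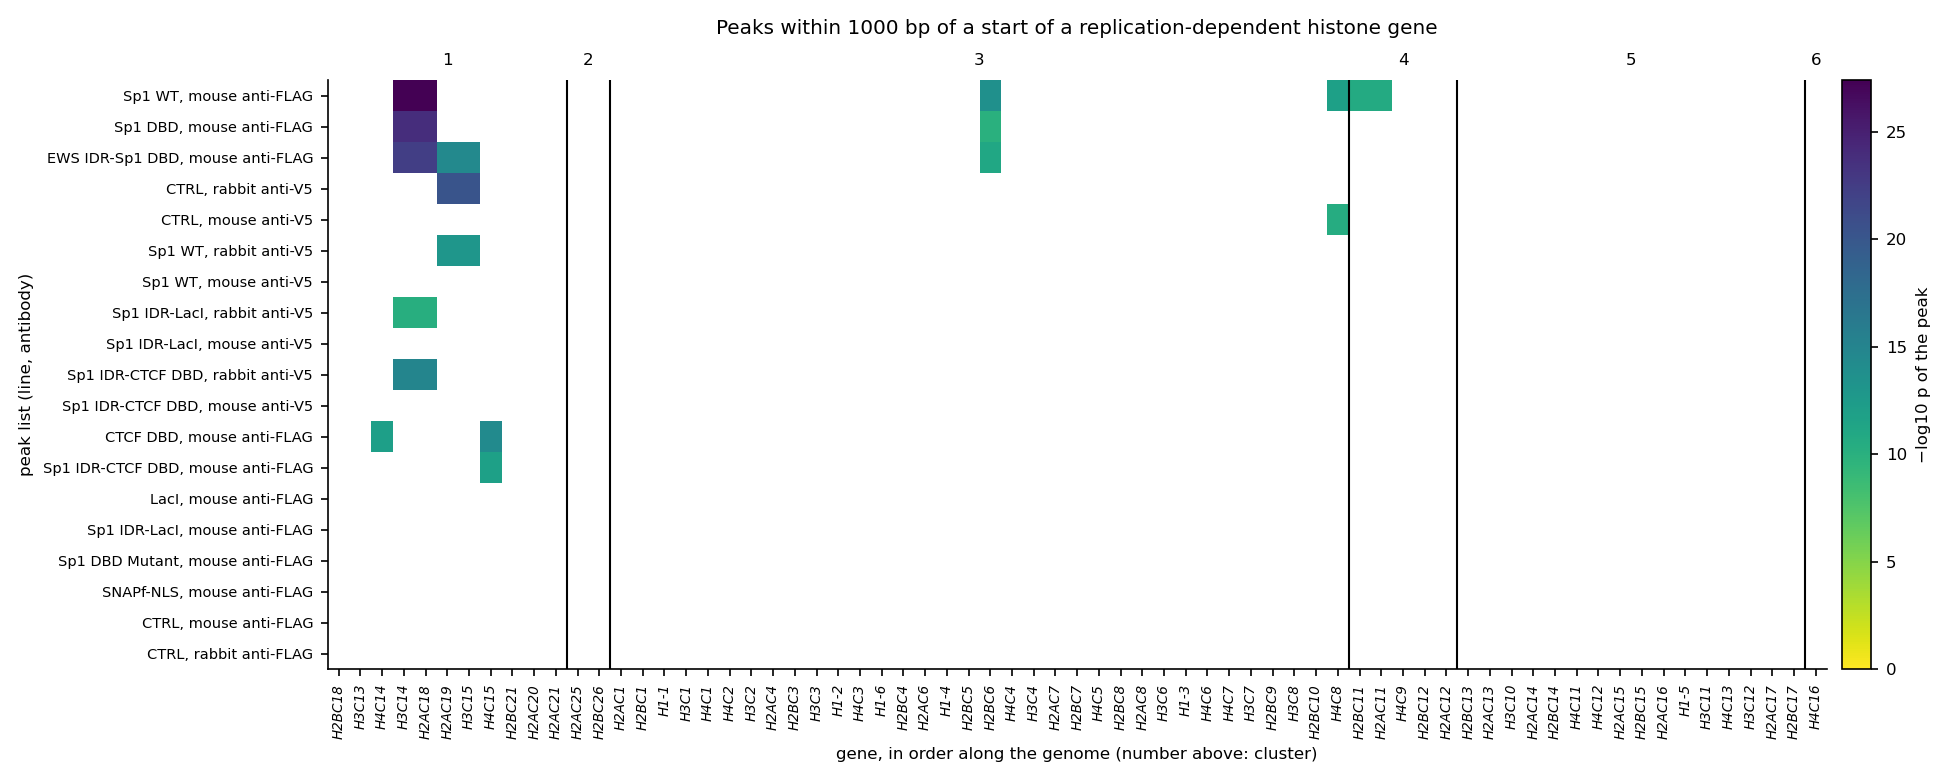
Map of the 69 histone genes (columns, in genome order, with the cluster number above) against the 19 peak lists (rows); colour gives the −log10 p of the peak within 1000 bp of a start, and white means no peak. Colour is seen at 10 genes and in 10 lists, 6 of the genes stand in cluster 1, and clusters 2, 5 and 6 are empty.

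The share was below that of all protein-coding genes in every list of a protein that holds the whole Sp1 DNA-binding domain. With mouse anti-FLAG, the Sp1 DBD occupied 3 histone genes (4.35%, 1.49 to 12%, against 16.1% of all genes) and EWS IDR–Sp1 DBD occupied 5 (7.25%, 3.13 to 15.9%, against 11.1%). Of the 11 lists, the interval holds the share of all genes for EWS IDR–Sp1 DBD and for Sp1 WT with rabbit anti-V5. The intervals take genes as independent, although neighbours can share a peak, so this split of lists is not a test. In each rabbit anti-V5 list, for example, the occupied genes shared 1 peak. For the endogenous Sp1 read with rabbit anti-V5, 2 histone genes were occupied in each of the 4 lines (2.90%, 0.799 to 9.97%), where all genes gave 10.4% in CTRL, 8.65% in Sp1 WT, 11.0% in Sp1 IDR–LacI and 11.1% in Sp1 IDR–CTCF DBD. With mouse anti-V5, 1 histone gene was occupied in CTRL (1.45%, 0.256 to 7.76%, against 9.75%). None was in Sp1 WT (against 6.80%), Sp1 IDR–LacI (8.79%) or Sp1 IDR–CTCF DBD (7.33%), each with an upper bound of 5.27%.

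Over all 11 lists of such proteins, 8 histone genes were occupied at least once (11.6%, 5.99 to 21.2%, against 28.9% of all genes) and 0 in all 11 (against 2.07%). Over the 8 anti-V5 lists the number was 5 (7.25%, against 15.1%). No histone gene was occupied in more than 5 of the 11 lists, whereas 32.5% of the 5792 protein-coding genes with a peak in any of them were occupied in 6 or more. This rests on 8 histone genes. H3C14 and H2AC18 have near-identical copies in cluster 1, described below, and which copy a peak belongs to is uncertain. Counted as a single locus, 1 copy or the other was listed in 7 of the 11 lists. Over all 19 lists, 10 histone genes were occupied (14.5%, against 29.7%) and 59 were not.

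**Figure D2:**
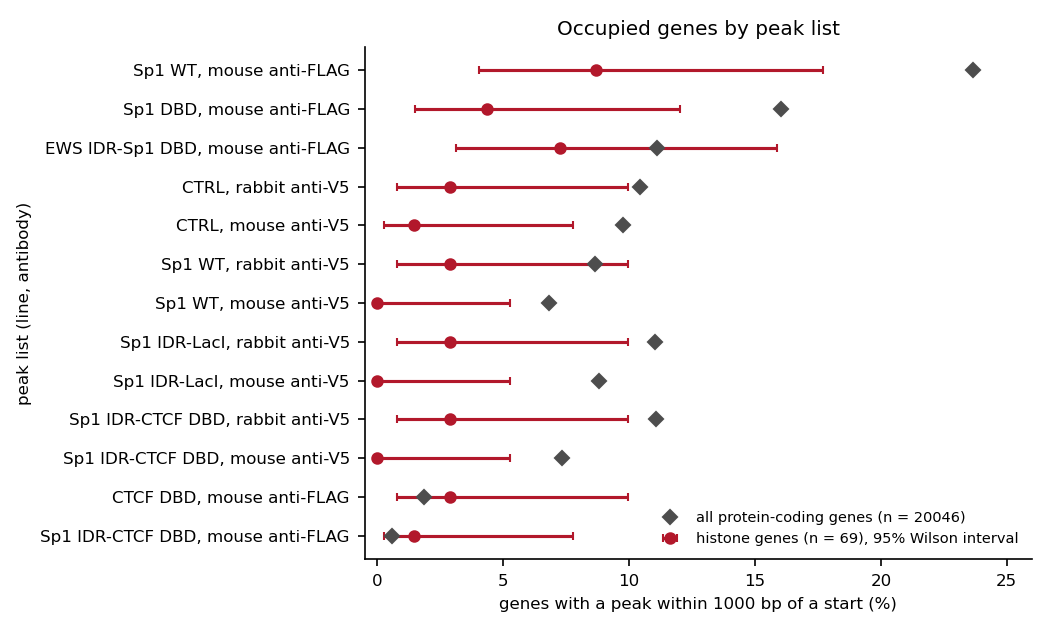
Share of genes with a peak within 1000 bp of a start (x axis, %) in the 13 lists that reach over 0.1% of protein-coding genes (y axis); circles are the 69 histone genes with 95% Wilson intervals, diamonds all 20046 protein-coding genes. The histone genes lie to the left of the diamond in all 11 lists with the whole Sp1 DNA-binding domain and to the right in the CTCF DBD and Sp1 IDR–CTCF DBD anti-FLAG lists, where the interval holds the diamond.

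The highest peak stood between H3C14, which encodes a canonical H3, and H2AC18, an H2A gene, in cluster 1. In the Sp1 WT list its −log10 p was 27.4 in one replicate and 41.4 in the other, and it ranked 1387 of 5151. It spanned chr1:149841222-149842768. The summit lay 273 bp upstream of the H3C14 start, beyond the printed window, while the H2AC18 start was inside the far end of the peak and 1269 bp from the summit. The peak held 9 GC boxes, and the centre of the nearest was 3.5 bp from the summit. The peak at the same place had 23.8 and 25.8 for the Sp1 DBD (rank 878 of 3277) and 22.3 and 25.9 for EWS IDR–Sp1 DBD (rank 680 of 2535). Both replicates were above the median peak in each of these 3 lists, at 18.7, 16.2 and 16.1 respectively.

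A copy of this pair lies in the opposite direction in the same cluster. H3C15 and H2AC19 begin 11400 and 8311 bp from H3C14 and H2AC18, and the 300-base promoter windows of each pair had 0 mismatches over 296 and 299 bases once the annotated starts were shifted by 4 and 1 bases. H4C14 and H4C15, the outer genes of the inverted arms, had 0 mismatches over 300 bases. In every peak of cluster 1, 100% of the 31-base words within 100 bp of the summit occurred more than once in hg38. Longer words were not searched, and whether read pairs can be assigned to one copy was not tested. The methods name no filter on mapping quality, so which copy a peak belongs to is uncertain.

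Peaks at H3C15 and H2AC19 were listed where the other copy was not, except in one list. With rabbit anti-V5, CTRL had 20.2 and 20.4 there (rank 1071 of 1987) and Sp1 WT 13 and 15.3 (rank 1263 of 1790). At H3C14 and H2AC18, Sp1 IDR–LacI had 10.2 and 22.4 (rank 1915 of 2126) and Sp1 IDR–CTCF DBD 14.9 and 16 (rank 1354 of 2172). Both copies were listed for EWS IDR–Sp1 DBD alone, with 14.5 and 19.9 at H3C15 and H2AC19. Counted as one locus, the pair was listed in 7 of the 11 lists: all 3 anti-FLAG lists and all 4 rabbit anti-V5 lists, and in 0 of the 4 mouse anti-V5 lists. Without the pair, no histone gene was listed with rabbit anti-V5.

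H2BC6, an H2B gene of cluster 3, was the second locus. Its peak ranked 3690 of 5151 in the Sp1 WT list, with 13.7 and 20.2, and spanned chr6:26171631-26172635. The Sp1 DBD gave 9.98 and 13.3 (rank 3021 of 3277) and EWS IDR–Sp1 DBD 11.1 and 23.1 (rank 2238 of 2535). The summits lay 18, 15 and 125 bp from the upstream start at position 26172059, which is not the canonical start of H2BC6, 26183761. The canonical promoter, 11720 bp from the Sp1 WT summit, had no GC box and no peak. With canonical starts alone, H2BC6 was not occupied in any of the 3 lists. None of the 31-base words at the summit was repeated, and no anti-V5 list held the peak.

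H4C8, an H4 gene at the end of cluster 3, had 11.8 and 17.6 in the Sp1 WT list (rank 4142 of 5151; chr6:26285113-26285871) and 10.4 and 27.4 in CTRL with mouse anti-V5 (rank 1725 of 1830). The Sp1 WT summit was 104 bp downstream of the canonical start of H4C8, whose other start, 26285638, lies farther upstream. The same summit was 78 bp from the start of the long noncoding RNA ENSG00000289447, which was nearer. The Sp1 WT peak had no GC box within 100 bp of the summit but held 1 farther out, with its centre 300.5 bp away. The CTRL peak held 0. None of the words near either summit was repeated. H2BC11 and H2AC11, a divergent H2B and H2A pair of cluster 4, shared a peak with 10.6 and 26.8 (rank 4505 of 5151; chr6:27131585-27133110) that was listed for Sp1 WT alone. Its summit was 210 bp from the nearest start of H2BC11 and 705 bp from that of H2AC11. The peak held 2 GC boxes, and the centre of the nearest was 337.5 bp from the summit.

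**Figure D3:**
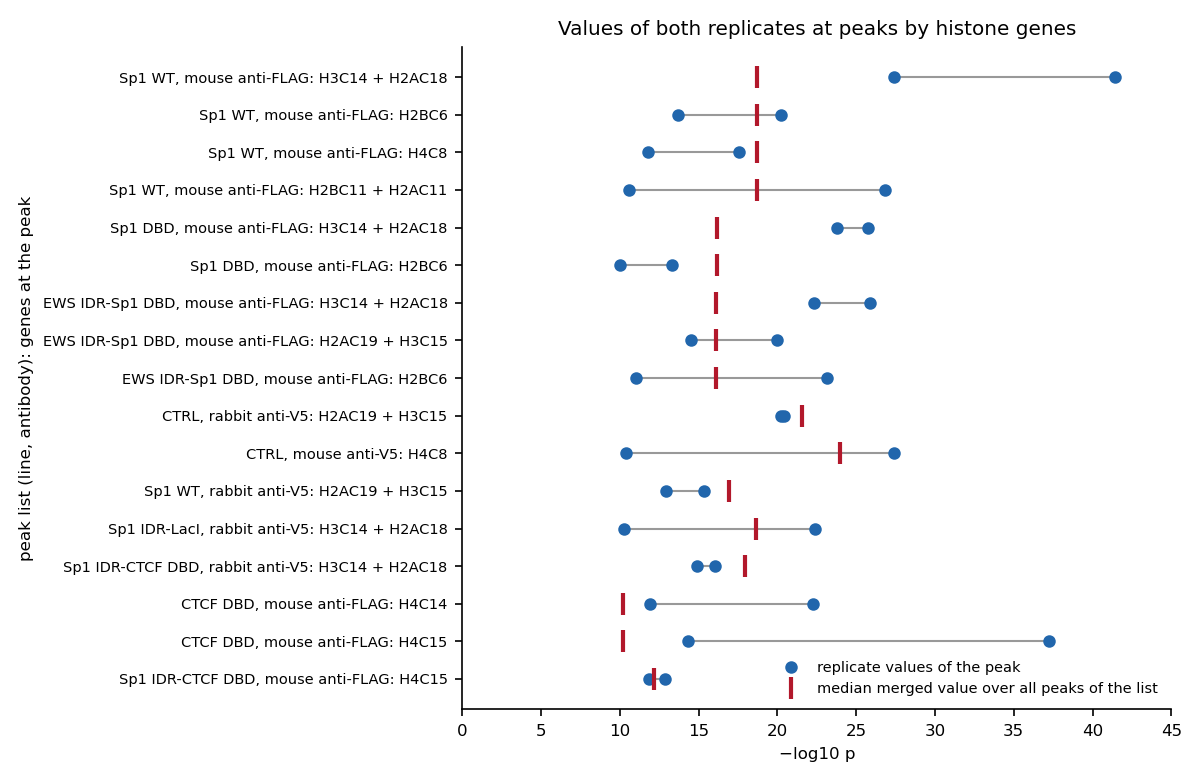
The −log10 p of both replicates (blue points joined by a line, x axis) for each of the 17 peaks at histone genes (y axis, list and genes), with the median merged value of the whole list as a red bar; merged values are the smaller of both, so a larger point can pass the bar without being in the upper part of its replicate. Both points lie to the right of the bar for H3C14 and H2AC18 in the 3 anti-FLAG lists and for H4C14 and H4C15 in the CTCF DBD list; the widest gap between replicates is at H4C15, 14.3 and 37.2.

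Apart from H3C14 and H2AC18 in the 3 anti-FLAG lists, the peaks of proteins with the whole Sp1 DNA-binding domain were in the lower part of their lists. In these 11 lists there were 14 peaks at histone genes, and 11 had a merged value, the smaller of both replicate values, below the median of the list. In the Sp1 WT list 3 of the 4 peaks did. Ranked from the top within each replicate, the peak of H2BC11 and H2AC11 stood at 87.5% and 62.5% of the Sp1 WT list. That of H4C8 in CTRL with mouse anti-V5 stood at 94.3% and 98.1% of its list. The H2BC6 peak of EWS IDR–Sp1 DBD differed more between replicates, at 91.1% and 38.5%. When the Sp1 WT list was shortened to its 2535 highest peaks, the length of the EWS IDR–Sp1 DBD list, 2 histone genes were left (2.90%, against 12.8% of all genes), H3C14 and H2AC18.

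Exact two-sided permutation tests compared whole lists, not cultures. Over the 11 anti-FLAG lists, the 3 of proteins with the whole Sp1 DNA-binding domain held a mean of 6.76% of the histone genes and the other 8 held 0.543%, a difference of 6.22 points (exact p = 0.00606, the smallest possible), with all 3 higher than each of the 8. Since 6 of the 8 held no histone gene and at most 0.0649% of all genes, and the lists of a group are different constructs, the p describes these lists alone. The same lists differed by 16.6 points over all protein-coding genes (16.9% against 0.315%, exact p = 0.00606). Between antibodies, rabbit anti-V5 held a mean of 2.90% and mouse anti-V5 0.362% over the 4 lines. The difference of 2.54 points had the same direction in 4 of 4 lines (exact sign-flip p = 0.125, the smallest that 4 pairs allow), and over all genes it was 2.13 points (exact p = 0.125). Without the inverted pair of cluster 1 the rabbit lists held 0 histone genes and the CTRL mouse list 1.

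In the lists of constructs without the whole Sp1 DNA-binding domain, the H4 genes of the inverted pair were the only histone genes listed. CTCF DBD occupied H4C14 and H4C15 (2 genes, 2.90%, against 1.88% of all genes), and Sp1 IDR–CTCF DBD occupied H4C15 (1 gene, 1.45%, against 0.574%). H4C14 had 11.9 and 22.2 (rank 208 of 649) and H4C15 14.3 and 37.2 (rank 93) for CTCF DBD, and H4C15 had 11.8 and 12.9 for Sp1 IDR–CTCF DBD (rank 91 of 166). The summits lay 129 to 156 bp downstream of the nearest start. The CTCF core motif, searched as a single exact pattern, was found neither within 100 bp of the summit nor elsewhere in these 3 peaks. Sites that depart from the pattern would be missed, and its share over all CTCF DBD peaks was not taken. No list with the Sp1 DNA-binding domain held a peak at H4C14 or H4C15.

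No histone gene was occupied with mouse anti-FLAG in LacI, Sp1 DBD Mutant, SNAPf-NLS or CTRL, where 0% of all protein-coding genes were. The same held for Sp1 IDR–LacI (0.00499% of all genes) and for CTRL with rabbit anti-FLAG (0.0649%). Over the 6 anti-FLAG lists of constructs without the whole domain, 2 histone genes were occupied, 2.90% against 2.04% of all genes. Removing peaks that overlap a peak of the control lists changed no count.

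Most histone genes were far from the nearest Sp1 WT peak on the scale of a promoter. The distance from a start to the nearest Sp1 WT peak had a median of 40.6 kb over the 69 genes and 63.2 kb over the 19970 protein-coding genes on chromosomes with a peak. Of the histone genes 59 (85.5%) were over 10 kb from one, against 70.9% of those genes. The nearest gene that was not occupied was H4C9, at 6172 bp. No histone gene fell between 500 and 1000 bp or between 1000 and 2000 bp, so that the counts at 500, 1000 and 5000 bp were the same 6 genes.

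**Figure D4:**
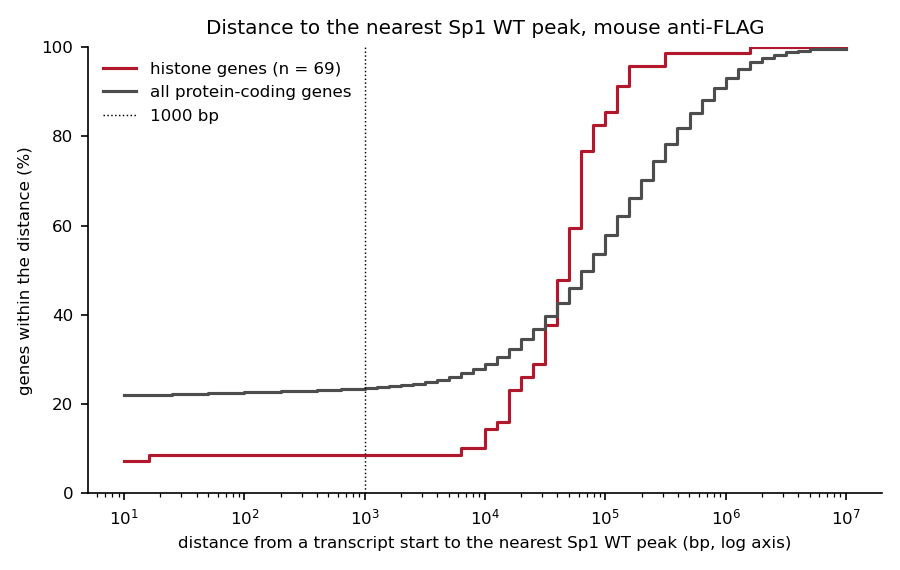
Cumulative share of genes (y axis, %) with a transcript start within a given distance of the nearest Sp1 WT peak of the mouse anti-FLAG list (x axis, bp, log axis), for the 69 histone genes (red) and all 20046 protein-coding genes (grey); the dotted line marks 1000 bp. The red curve goes from 7.25% at 10 bp to 8.70% at 5000 bp, below the grey one, and crosses it beyond 10 kb.

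The promoters of the histone genes differed from other promoters in the motif that Sp1 binds. In the window from 250 bases before to 50 bases after the canonical start, searched on both strands, GGGCGG was found in 18 of 69 histone promoters (26.1%) and in 61.3% of 20044 protein-coding promoters. It was seen in 4 of 6 H1, 1 of 17 H2A (H2AC20), 1 of 18 H2B (H2BC21), 4 of 13 H3 and 8 of 15 H4 promoters. The longer form GGGGCGGGG was found in 1 histone promoter (H1-6, 1.45%) and in 24.5% of all. Median GC content was 44% against 63.7%, and the median number of CpG was 11 against 23.

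Elements of histone promoters showed the opposite order. CCAAT was found in 59 of 69 (85.5%, against 36.1% of all promoters): all H1, H2A, H2B and H3 promoters and 5 of 15 H4 promoters. TATAAA was found in 46 (66.7%, against 9.71%). ATTTGCAT was found in 26 (37.7%, against 1.62%), of which 12 were H2A and 14 were H2B promoters. A match is not a bound site, and the windows were not matched on GC content.

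**Figure D5:**
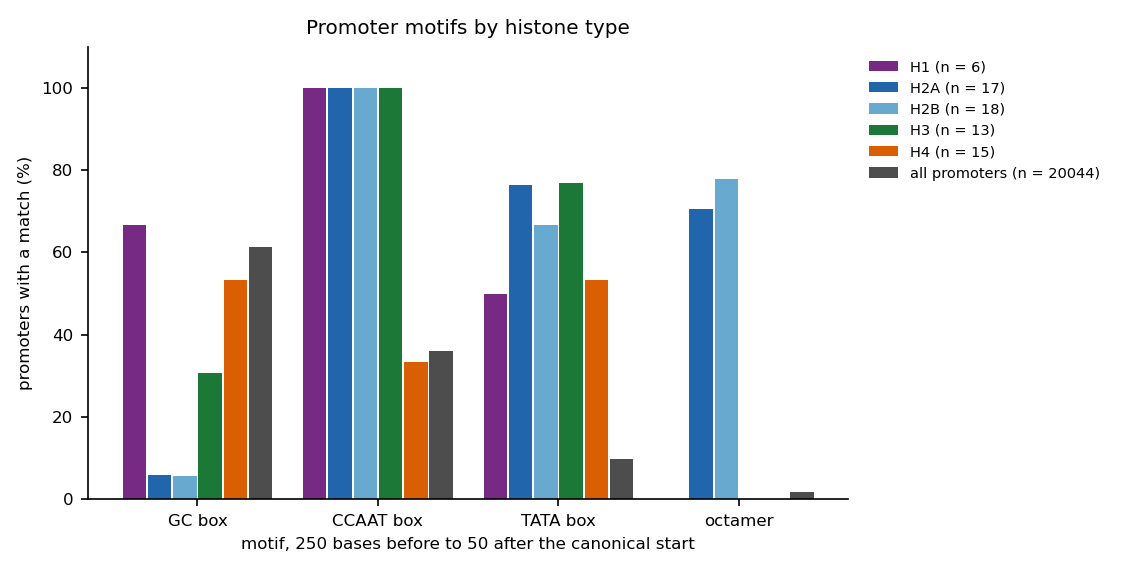
Share of promoters (y axis, %) with a match to each of the 4 motifs (x axis) for each histone type (coloured bars) and for all protein-coding promoters (dark grey). The GC box is at 66.7% in H1 and 53.3% in H4 but 5.88% in H2A and 5.56% in H2B, CCAAT is at 100% in all types but H4 (33.3%), and the octamer is seen in H2A (70.6%) and H2B (77.8%) promoters.

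Sp1 WT occupancy of histone genes was set beside that of other genes with and without the GC box. Among promoters without one, Sp1 WT occupied 9.56% of 7763 protein-coding genes and 5 of 51 histone genes (9.80%). The split goes by the canonical promoter: of the 5, H2BC6 was occupied at its upstream start, which has a GC box, and H2AC18 through the peak beside H3C14, which holds 9. The Sp1 WT peak at H4C8 held 1 GC box and that at H2BC11 and H2AC11 held 2, none of them within 100 bp of the summit. Among promoters with one, it occupied 32.6% of 12281 genes and 1 of 18 histone genes (5.56%), H3C14. All 4 H1 genes and all 8 H4 genes with a GC box were among the other 17. In a wider window, 1000 bp to either side of the canonical start, 61 histone genes had a GC box (88.4%, against 81.7% of all genes). These included all 6 that were occupied, but H2BC6 was occupied at its upstream start, which lies outside this window.

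Genes that act on the histone genes were listed at a higher share than the histone genes themselves, a difference that was not tested. Of 28 factors of histone gene transcription and 3′ end processing, 17 (60.7%) had a Sp1 WT peak, against 23.7% of all genes. With the Sp1 DBD, 10 did (35.7%, against 16.1%), and with EWS IDR–Sp1 DBD 6 did (21.4%, against 11.1%). The endogenous Sp1 of CTRL was listed at 5 (17.9%, against 10.4%) with rabbit and at 8 (28.6%, against 9.75%) with mouse anti-V5. In Sp1 WT with rabbit anti-V5 it was listed at 2 (7.14%, against 8.65%), the one list of the 11 with a share below that of all genes, and in the other 5 anti-V5 lists at 17.9 to 35.7%. The merged −log10 p in the Sp1 WT list was 35.8 at NPAT, the coactivator of histone genes, and 43.4 at CASP8AP2, which encodes the NPAT partner FLASH. NPAT shares a bidirectional promoter with ATM, so its peak cannot be given to one of them. The value was 21.6 at SLBP, whose product binds the stem-loop of histone mRNA, 17.5 at HINFP, a factor of H4 promoters, and 66.7 at NFYA, a subunit of the CCAAT-binding factor. Of the other subunits of that factor, NFYC had 10.3 and was listed in 2 of the 11 lists, and NFYB was listed in none. LSM10, LSM11 and COIL, which encode parts of the U7 particle and of Cajal bodies, had no peak in any of the 11 lists. Nor had NCBP2, FIP1L1, CCNE2, CPSF2, CSTF1 or CSTF2. ZNF473, also among the 28 factors, had 63.3 in the Sp1 WT list and was listed in 9 of the 11.

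Of 27 histone genes outside the rule, such as those of replacement variants, 3 (11.1%, against 23.7% of all genes) were occupied by Sp1 WT: H2AZ1 (27.8) and H2AZ2 (41.5), which encode the variant H2A.Z, and H2AX (11.8), the variant phosphorylated at DNA breaks. H2AZ1 was listed in 8 and H2AZ2 in 9 of the 11 lists with the whole Sp1 DNA-binding domain. H2AX was listed in 1. The share over the 27 was below that of all genes in 7 of the 11 lists and above it in 4: CTRL with rabbit anti-V5 (11.1%, against 10.4%), CTRL with mouse anti-V5 (11.1%, against 9.75%), Sp1 WT with mouse anti-V5 (7.41%, against 6.80%) and Sp1 IDR–LacI with rabbit anti-V5 (18.5%, against 11.0%). The last held 5 genes, H3-3A and H3-3B of the variant H3.3, CENPA of centromeric H3, H2AZ1 and H2AZ2. None of the 27 was listed for CTCF DBD.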

How the data were processed

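CUT&RUN libraries of 38 samples in 19 groups were mapped from the sample labels. Per the methods, the authors used Cutadapt 2.6 for trimming, Bowtie2 2.3.5.1 for alignment to hg38 and samtools 1.9 for removing duplicates. Peak calling was by MACS3 (version stated as 2.2.7.1, at a cutoff of 1e-3), with the control replicates merged, and the lists hold peaks whose irreproducible discovery rate (IDR) does not exceed 0.1. The deposited −log10 p-values are those of the merged peak and of each replicate. The order of the labelled replicates in the lists is unknown. For stricter thresholds the deposited score, which gives the global IDR as −log10, was used. The authors also deposited 6 tables of their own comparisons of constructs, with log10 likelihood ratios, which were not used.

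Transcript starts came from GENCODE 44. Intervals were 95% Wilson, motifs were exact matches, and 0 of 27085 peaks lay outside the reference. CTCF sites were searched as the CTCF core motif on both strands. Promoters of 64 of the 69 genes are in the RefSeq table; the sequences printed were read from hg38. Bases in annotated UTRs were left out of them, and 1 window that the rule names is not reported here. No count model was run, as the files hold no counts, and the read numbers that the study lists for its libraries were not used here. The members and gene lists were chosen with earlier results of these data known. Genes named are all those occupied by Sp1 WT or by a construct without the whole Sp1 DNA-binding domain; in the 3 gene lists, examples were chosen after their values were seen. On data made with known overlaps over 2000 genes, the code for occupancy returned the 5%, 30% and 80% placed. Alternatives were distances of 500 and 5000 bp, the summit alone, IDR of at most 0.05 and 0.01, canonical starts, removal of control peaks, lists of equal length, merged starts and other motif forms. Software was Python 3.11.15, pandas 2.3.3, SciPy 1.17.1 and matplotlib 3.10.9.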

Additional observations from a re-analysis of the deposited data

Results flagged for a closer look

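Among the 4 mouse anti-V5 lists, that of CTRL held 1 histone gene (H4C8) and the others 0. This gap fills the whole range of the group. The CTRL list was also the longest of the 4, with 1830 peaks and 9.75% of all genes. The others held 1332 to 1739 peaks and 6.80 to 8.79% of all genes. The limit used (Dixon's 95% value) is meant to set apart about 1 group in 20 by chance for continuous measurements. Its rate for counts of 0 and 1 was not tested, and a single gene is enough.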

How the results depend on the processing

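With IDR of at most 0.01, occupied histone genes numbered 2 for Sp1 WT and for EWS IDR–Sp1 DBD with mouse anti-FLAG and 0 for Sp1 IDR–CTCF DBD with mouse anti-FLAG, CTRL with mouse anti-V5 and all 4 rabbit anti-V5 lists. The share of all genes also fell, to 13.3% for Sp1 WT, 3.87% for EWS IDR–Sp1 DBD, 0.0649% for Sp1 IDR–CTCF DBD with mouse anti-FLAG, 6.73% for CTRL with mouse anti-V5 and 5.15 to 7.52% for the rabbit anti-V5 lists. With IDR of at most 0.05, CTRL with rabbit and with mouse anti-V5 and Sp1 IDR–CTCF DBD with mouse anti-FLAG held 0 (9.27%, 8.91% and 0.329% of all genes). With lists of equal length, Sp1 WT held 2 (12.8% of all genes), and CTRL with mouse anti-V5, Sp1 IDR–LacI and Sp1 IDR–CTCF DBD with rabbit anti-V5 held 0 (7.27%, 7.19% and 7.11%). With the summit alone within 1000 bp, EWS IDR–Sp1 DBD held 3 (10.8% of all genes) and each of the 4 rabbit anti-V5 lists 1 (8.49 to 10.9%). In alternatives chosen after seeing the data, counting the inverted pair once gave 3 for EWS IDR–Sp1 DBD and 1 for CTCF DBD. Leaving it out gave 1 for the Sp1 DBD and for EWS IDR–Sp1 DBD. It gave 0 for all 4 rabbit anti-V5 lists, CTCF DBD and Sp1 IDR–CTCF DBD with mouse anti-FLAG. Neither alternative recounted all genes, whose shares in the full lists were 16.1% for the Sp1 DBD and 11.1% for EWS IDR–Sp1 DBD. They were 8.65 to 11.1% for rabbit anti-V5, 1.88% for CTCF DBD and 0.574% for Sp1 IDR–CTCF DBD with mouse anti-FLAG. GC boxes were found in 1 histone promoter as GGGGCGGGG and near 61 genes within 1000 bp. Distances of 500 and 5000 bp, canonical starts, merged starts and removal of control peaks moved no count beyond 1.5 times. With IDR of at most 0.05, the construct difference was 5.43 points (exact p = 0.0121) and the antibody difference 2.17 points (exact p = 0.25). No paired analysis was possible because each list merges both replicates, so that replicate numbers could enter no fit (the antibody comparison was paired by line), and leaving out a replicate could not be run for the same reason. Depth was not analysed here, and a gene without a peak is a gene not listed, not a gene shown to be unbound.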

Other observations

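The few other protein-coding genes within the clusters were not occupied by Sp1 WT either, where 23.7% of all protein-coding genes were. So few genes do not set the clusters apart. Between the first and last start of cluster 3 lie 7 other protein-coding genes, among them the iron regulator HFE and the solute carrier genes SLC17A1, SLC17A2, SLC17A3 and SLC17A4, and 0 of the 7 were occupied. The same span, 559 kb, held 3 Sp1 WT peaks. BOLA1, the other protein-coding gene in cluster 1, was not occupied.

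Genes of the DNA replication machinery, which act in the same phase of the cell cycle, were listed at a higher share than the histone genes, a difference that was not tested. Of 44 such genes, 19 (43.2%) had a Sp1 WT peak, 13 (29.5%) an Sp1 DBD peak and 7 (15.9%) an EWS IDR–Sp1 DBD peak, against 23.7%, 16.1% and 11.1% of all protein-coding genes. ORC6, a subunit of the origin recognition complex, and LIG1, the ligase of lagging-strand synthesis, were listed in 11 of the 11 lists with the whole Sp1 DNA-binding domain, and PCNA, the sliding clamp, in 10. Other genes of the 44 had no peak in any of the 11 lists. Among them were RFC1, RFC2, RFC3, RFC4, RFC5, MCM4, MCM5, MCM6, POLA1, POLE, RPA1, RPA2, FEN1 and CDT1. The merged −log10 p in the Sp1 WT list was 62.4 at ORC6, 33.6 at LIG1 and 41.5 at PCNA. The CTCF DBD list held 4 of the 44 (9.09%, against 1.88%): ORC2, MCM3, PRIM2 and ORC6.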
